A study of Arabidopsis thaliana with 12 samples.

Results

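GH3.1, GH3.3 and WES1 (also known as GH3.5) encode enzymes of the GH3 family that attach amino acids to auxin. They were taken as the probe sets whose annotation lists exactly 1 gene with one of these symbols. Each has 1 such probe set, so 3 of the 13350 genes that have a probe set of their own are described (13513 of the 22746 non-control probe sets list exactly 1 gene). The arrays measured total RNA from hypocotyls, the stem-like axes of seedlings, of Arabidopsis thaliana ecotype Col-0 with no transgene or mutation named. There were 3 biological replicate arrays in each of 4 groups: plants 7 days old without auxin, 7 days old with auxin for 1 day, 35 days old without auxin, and 35 days old with auxin for 1 day. All had been raised on full-strength MS, and the labels name neither the auxin nor its dose, and do not say if the controls went through a mock day. The series asks how the ability to form callus, a mass of dividing cells that auxin can induce, changes with the age of the hypocotyl.

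Auxin acts by binding its receptors of the TIR1/AFB family, which leads to the breakdown of AUX/IAA repressors and frees the auxin response factors to switch on early genes. GH3 genes are among these early genes, and the enzymes of this subgroup join indole-3-acetic acid to amino acids, which stores it or marks it for removal. The family thus forms a feedback loop on free auxin. In Arabidopsis hypocotyls, GH3.3 and WES1 are known to act in the formation of adventitious roots, and WES1 can also act on salicylic acid.

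The deposited values are log2 values relative to each probe set's own median over the 12 arrays. A value therefore says how an array stands against the other arrays for that gene, and not how strongly the gene was expressed, so levels were not compared between genes. In whole hypocotyls, fewer cells that express a gene and less of its RNA per cell cannot be told apart. The number of arrays, 3 per group, limits the precision. On the bioC spike-in, a bacterial control, arrays 1 and 2 of both untreated groups lay between −1.61 and −1.43, and the other 8 arrays between −0.20 and 0.70. Where leaving out these 4 arrays changes a call given below for a named gene, this is stated. Other values moved too, and not all are given. The young rise of GH3.3, for example, was then 4.37 and that of WES1 3.56. Of the 4 genes listed as green tissue markers, 3 have a probe set of their own (LHCB4.2, PSAN and PRK), and their mean lay at 4.61 to 4.82 in untreated young, 2.52 to 3.3 in untreated mature, −3.12 to −2.83 in treated young and −3.14 to −2.78 in treated mature hypocotyls. The part of this shift in the results below was not tested. No probe set of 1 gene was found for the listed markers of xylem, phloem, epidermis or root, so the tissue could not be checked against these.

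GH3.1, GH3.3 and WES1 were all far higher after auxin at both ages. In young hypocotyls GH3.1 was 202-fold, GH3.3 27.2-fold and WES1 8.93-fold higher, and in mature ones GH3.1 was 228-fold, GH3.3 117.5-fold and WES1 33.9-fold higher. GH3.3 and WES1 were lower in mature than in young hypocotyls before auxin, and GH3.1 was lower by a smaller amount (−0.38). This call of GH3.1 was lost without the 4 arrays of low bioC signal. The age difference after auxin was not called for any of the 3. The response to auxin was larger at 35 days for GH3.3 and WES1, and no such difference was called for GH3.1.

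GH3.1 lay at −3.62, −3.72 and −3.63 on the 3 untreated young arrays. With auxin it lay at 3.86, 4.06 and 4.09. In mature hypocotyls the values were −3.97, −4.19 and −3.95 without auxin and 3.82, 3.96 and 3.62 with it. Every treated array thus stood above every untreated array, by far more than the spread within a group (SD 0.06 to 0.17). Among mature hypocotyls the difference was 7.83 ± 0.10 (SE, n = 3 per group, limma adjusted p = 2.43e-14), the highest of the 22746 probe sets. In young ones it was 7.66 ± 0.10 (limma adjusted p = 3.27e-14) and ranked 3 from the top.

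GH3.3, one of the genes known from adventitious rooting, lay at −2.68, −2.70 and −2.09 on untreated young arrays and at 2.18, 2.36 and 2.28 on treated ones. Its untreated mature values were −3.97, −4.49 and −5.27, the widest range of the 3 genes in any group (1.30), and its treated mature values were 2.09, 2.51 and 2.30. The 2 untreated groups did not overlap, and the 2 treated groups did. Auxin raised GH3.3 by 4.76 ± 0.25 in young hypocotyls (rank 59, limma adjusted p = 1.06e-09) and by 6.88 ± 0.25 in mature ones (rank 4, limma adjusted p = 3.95e-11). Without the 4 arrays of low bioC signal the mature rise was 7.57, since array 3, the lowest untreated mature value, was then the sole untreated one.

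WES1, the member that can also act on salicylic acid, lay at −1.04, −1.56 and −1.89 without and at 1.68, 1.68 and 1.63 with auxin in young hypocotyls. In mature ones it lay at −3.82, −4.01 and −3.79 without and at 1.24, 1.35 and 1.04 with auxin. Its treated young arrays differed by only 0.05, the narrowest range of the 3 genes, and its untreated young arrays by 0.85. The rise was 3.16 ± 0.16 in young (rank 246, limma adjusted p = 7.72e-10) and 5.08 ± 0.16 in mature hypocotyls (rank 31, limma adjusted p = 1.26e-11). All 3 genes were called higher at each age, against a background of 32.7% of probe sets called higher at 7 days and 31.8% at 35 days. Treated and untreated arrays did not overlap for any of the 3, as was so, with the treated ones higher, for 35.6% of probe sets at 7 days and 34.9% at 35 days. The sizes of the rises of GH3.1 and GH3.3 stand further out: 50 of 22746 probe sets rose 16-fold or more at both ages, and these genes are 2 of them. WES1, with its rise of 3.16 in young hypocotyls, is not among the 50. The cut of 16-fold serves as a description.

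**Figure D1:**
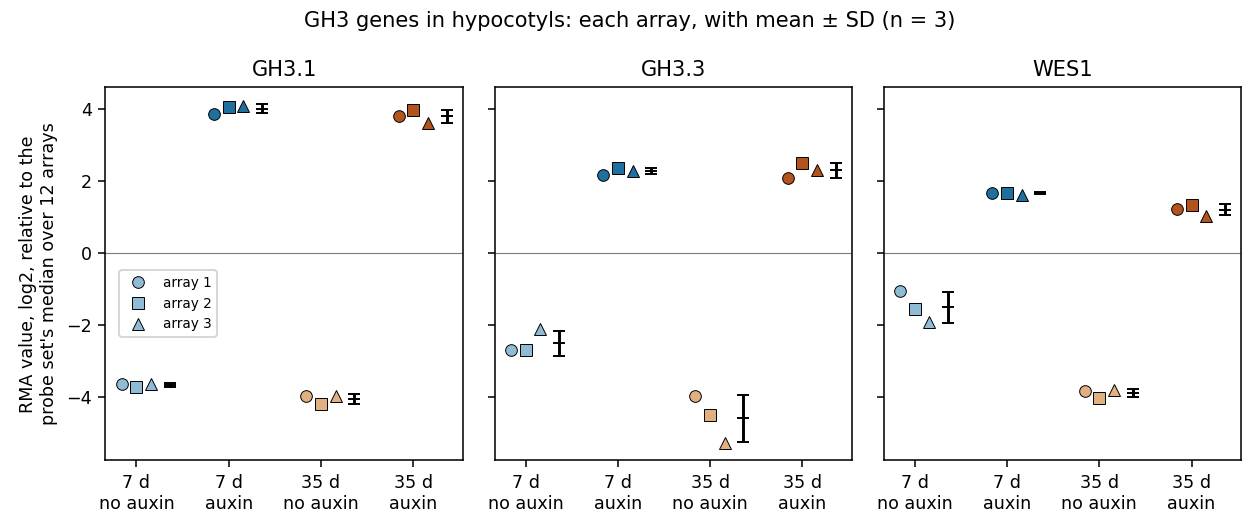
Values of GH3.1, GH3.3 and WES1 on each of the 12 arrays (log2 RMA value relative to the probe set's median), by age and auxin. Markers give the replicate number, and the bar beside each group its mean ± SD (n = 3). The treated arrays lie above 0 and the untreated ones below it for every gene, and the untreated mature arrays of GH3.3 (−5.27 to −3.97) and WES1 (−4.01 to −3.79) lie below the untreated young ones.

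Age separated the untreated groups unequally. WES1 was 5.20-fold lower in mature than in young untreated hypocotyls (−2.38 ± 0.16, limma adjusted p = 4.37e-08), and GH3.3 was 4.25-fold lower (−2.09 ± 0.25, limma adjusted p = 1.14e-05). GH3.1 was 1.30-fold lower (−0.38 ± 0.10, limma adjusted p = 0.00862). For each gene all 3 mature arrays lay below all 3 young ones, as for 27.7% of probe sets, and all 3 genes were called lower, against 22.9% of probe sets. Without the 4 arrays of low bioC signal, GH3.3 differed by −3.18 and WES1 by −1.90, both still called, while the call of GH3.1 ended (−0.31, limma adjusted p = 0.313). Each untreated group then holds 1 array, whose spread is taken from the other arrays. The median of LHCB4.2, PSAN and PRK was also lower in untreated mature hypocotyls, by −1.86. Under quantile normalization the 3 markers differed by −1.18, −1.25 and −1.12, and with the 4 low-bioC arrays left out by −1.05, −1.41 and −1.47.

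After auxin the ages lay close together. GH3.3 differed by 0.03 ± 0.25, with a 95% interval from −0.52 to 0.58, and GH3.1 by −0.21 ± 0.10, with an interval from −0.43 to 0.02. These intervals bound the age difference of GH3.3 at 1.49-fold higher or 1.44-fold lower. WES1 was 1.37-fold lower in mature hypocotyls (−0.45 ± 0.16), with no overlap between the arrays (as for 18.4% of probe sets), and just missed the threshold (limma adjusted p = 0.0554). A block for the replicate number was fitted over all 4 groups. Only the 2 treated groups had same-numbered correlations above 0.1 throughout (0.12 to 0.25), and elsewhere they ran down to −0.08. With this block WES1 was called (limma adjusted p = 0.0423, same difference). It was also called without array 1 (limma adjusted p = 0.0069) or array 3 (0.0167) of the untreated young group, whose spread enters the pooled error while the difference stays −0.45. The age difference of treated WES1 thus lies at the threshold. In all, limma called 0 of the 3 genes, against a background of 27.3% of probe sets in either direction, and the 95% interval of 1 of them, WES1 (−0.81 to −0.10), left out 0, which is an unadjusted p under 0.05.

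The order of the 4 groups follows from these values. For GH3.1 and WES1 the group means fell from treated young (4.0 and 1.66) through treated mature (3.8 and 1.21) and untreated young (−3.66 and −1.50) to untreated mature hypocotyls (−4.04 and −3.88). For GH3.3 the treated groups stood in the opposite order, at 2.30 in mature and 2.27 in young hypocotyls, above −2.49 and −4.58 without auxin. The 2 treated groups, next to each other in each order, were not called apart, and the 2 untreated ones were. Groups that differ in both age and auxin were not compared.

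**Figure D2:**
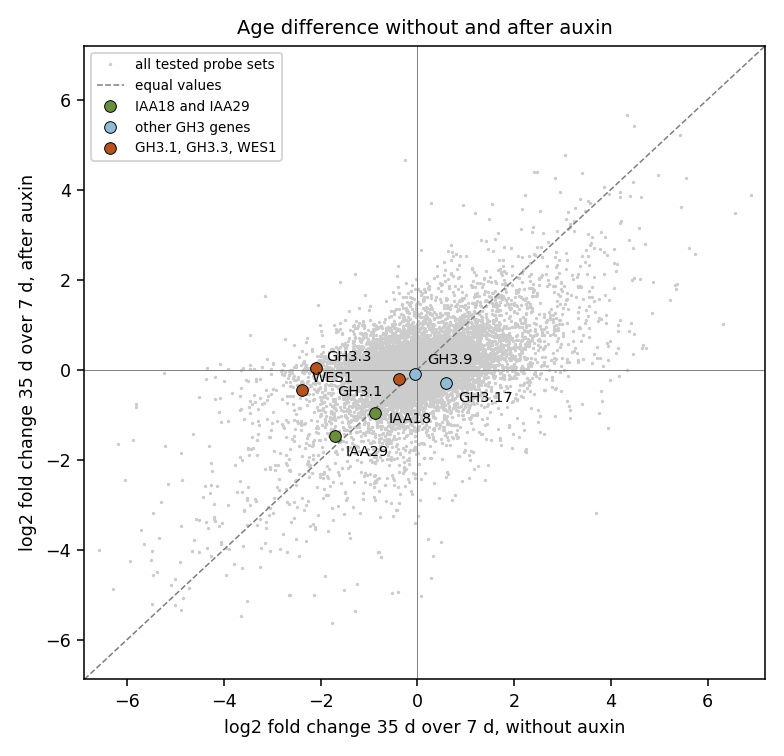
Log2 difference between 35-day and 7-day hypocotyls without auxin (x axis) and after auxin (y axis) for all 22746 tested probe sets in grey, with GH3 genes and 2 AUX/IAA genes marked and a dashed line of equal values. GH3.3 (−2.09 and 0.03) and WES1 (−2.38 and −0.45) lie left of the line near 0 on the y axis, while IAA29 (−1.69 and −1.48) lies near the line.

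Whether the rise itself changed with age was tested as an interaction. The response of GH3.3 was 4.33 times as large at 35 as at 7 days (2.11 ± 0.36 on the log2 scale, limma adjusted p = 0.000421), and that of WES1 was 3.8 times as large (1.93 ± 0.23, limma adjusted p = 2.35e-05). GH3.1 showed 1.13 times the response, a difference of 0.17 ± 0.15 with a 95% interval from −0.15 to 0.49 (limma adjusted p = 0.414). Thus 2 of the 3 genes were called with a larger response at 35 days, against 17.5% of probe sets called larger and 17.5% smaller (35.0% in either direction). By construction the response difference equals the age difference after auxin minus that before it, so for GH3.3 the 2.11 is made up of 0.03 and −2.09. For WES1 the 1.93 is made up of −0.45 and −2.38. Leaving out the 4 low-bioC arrays gave a difference of 3.21 for GH3.3, 1.44 for WES1 and 0.11 for GH3.1. Whether the genes differ from each other in this respect was not tested.

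Quantile normalization of the deposited values moved GH3.1 most: its mature rise became 8.94, its age difference −1.15 without and 0.50 with auxin, and its response difference 1.66 (limma adjusted p = 0.000422). The statement that no age difference of its response was called therefore holds for the deposited scaling and not for that one. The cause was not tested. The deposited values had already been normalized by RMA and centred by row. Quantile normalization thus ranked deviations from each row's median and not signal, which limits what this alternative can decide here and for other genes. GH3.3 and WES1 kept their larger mature response under it and under every other alternative run.

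Rising with auxin at both ages was common, and the pattern of GH3.3 and WES1 was less so. Of the 5486 probe sets called higher at both ages, 1005 (18.3%) had a larger and 892 (16.3%) a smaller response at 35 days. A further criterion, being lower with age before auxin, not called after it, and larger in response, was met by 407 (7.42%), GH3.3 and WES1 among them. This criterion was written after the pattern had been seen and is a description. WES1 met it narrowly, as its age difference after auxin just missed the threshold (limma adjusted p = 0.0554) and was called in several alternatives. Probe sets called lower with age both before and after auxin, with a larger response, numbered 58 (1.06%).

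**Figure D3:**
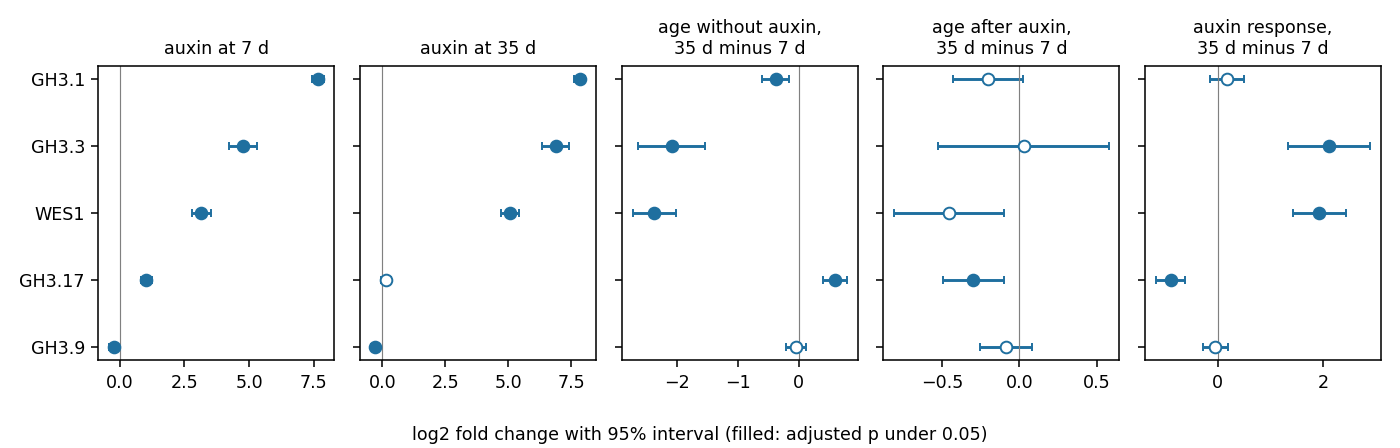
Log2 fold changes of the 5 GH3 genes with a probe set of their own in each of 5 comparisons, with 95% intervals from limma. Filled points have an adjusted p under 0.05. GH3.1, GH3.3 and WES1 lie far right of 0 in both auxin panels, GH3.3 (2.11) and WES1 (1.93) also in the last panel, and GH3.17 (−0.89) to the left there. The scales of the panels differ.

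Of the 11 GH3 genes listed, 5 have a probe set with exactly 1 gene. The other 2 are GH3.17, whose enzyme joins auxin to glutamate, and GH3.9. GH3.17 lay at −0.73, −0.72 and −0.64 in untreated and at 0.36, 0.30 and 0.33 in treated young hypocotyls, a rise of 2.04-fold (1.03 ± 0.09, limma adjusted p = 1.94e-07). In mature ones it lay at −0.29, 0.07 and −0.09 without and at −0.04, 0.10 and 0.04 with auxin, a difference of 0.14 ± 0.09 that was not called (limma adjusted p = 0.216). Its response was smaller at 35 days by −0.89 ± 0.13 (limma adjusted p = 0.000105), the opposite sign to GH3.3 and WES1. Before auxin it was 1.51-fold higher in mature hypocotyls (0.60 ± 0.09, limma adjusted p = 8.87e-05), again opposite to the 3 genes, with 22.7% of probe sets called higher and 45.7% in either direction. After auxin it was lower by −0.30 ± 0.09 (limma adjusted p = 0.0259), against 13.0% of probe sets called lower in that comparison. This call ended without any 1 of 5 treated arrays (all but array 2 of the mature group), with values from −0.31 to −0.26.

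GH3.9 moved little. It lay between 0.08 and 0.16 in untreated and between −0.24 and −0.02 in treated young hypocotyls, and between 0.02 and 0.13 and between −0.26 and −0.16 in mature ones. Auxin lowered it by −0.24 ± 0.08 in young (limma adjusted p = 0.0157) and by −0.29 ± 0.08 in mature hypocotyls (limma adjusted p = 0.00565). The young call ended without array 2 of the untreated (−0.22) or array 3 of the treated young group (−0.19), and when the 4 low-bioC arrays were left out (−0.21). Neither age comparison of GH3.9 was called, and nor was the difference of its responses (−0.04 ± 0.11). Of the 5 GH3 genes, 4 rose and 1 fell (as 26.4% of probe sets did) at 7 days with a median of 3.16, against a median of 0.02 over all probe sets. At 35 days 3 rose and 1 fell (28.1% of probe sets), with a median of 5.08 against 0.06.

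Other genes of auxin removal were measured in small number. UGT74D1 and UGT84B1 encode enzymes that attach glucose to auxin. UGT74D1 was 4.04-fold lower with auxin in young (−2.01 ± 0.13, limma adjusted p = 8.75e-09) and 2.75-fold lower in mature hypocotyls (−1.46 ± 0.13, limma adjusted p = 2.73e-07), while UGT84B1 was not called in any comparison. The loci AT1G14120 and AT1G14130 stand in the same list by locus, and the annotation used here gives them no symbol. AT1G14120 was lower with auxin at both ages (−2.70 ± 0.19 and −1.73 ± 0.19), and it was higher in mature than in young hypocotyls before (10.6-fold, 3.4 ± 0.19) and after auxin (20.6-fold, 4.37 ± 0.19). AT1G14130 was higher in mature hypocotyls too (1.70 ± 0.10 and 0.98 ± 0.10), and auxin lowered it at 35 days (−0.63 ± 0.10, or −0.41 with the 4 low-bioC arrays left out). UGT74D1 went the other way with age, lower in mature hypocotyls before (−1.47, limma adjusted p = 5.85e-07) and after auxin (−0.91, limma adjusted p = 0.000119). So 2 of the 4 measured genes were called higher and 1 lower in each age comparison. Before auxin 22.7% of all probe sets were called higher and 22.9% lower. After auxin 27.3% were called in either direction and 13.0% lower. In this list of 6, with 4 measured, 0 rose and 2 fell at 7 days, and 0 rose and 3 fell at 35 days, with medians of −1.01 and −1.05. Over all probe sets 32.7% rose and 26.4% fell at 7 days, and 31.8% rose and 28.1% fell at 35 days, so with 4 genes these counts are a description only. None of the 7 listed conjugate hydrolases, which free auxin from its amino acid conjugates, has a probe set of 1 gene.

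Among the genes of auxin synthesis, 4 of the 14 listed were measured, all of the YUC family of monooxygenases. YUC6 was 2.46-fold lower with auxin in young (−1.30 ± 0.15, limma adjusted p = 4.43e-06) and 2.70-fold lower in mature hypocotyls (−1.43 ± 0.15, limma adjusted p = 1.74e-06). YUC4 was lower with auxin in young hypocotyls by −0.24 ± 0.09 (limma adjusted p = 0.0385), a call that ended without array 1 (−0.18) or 2 (−0.24) of the untreated or array 2 (−0.19) or 3 (−0.25) of the treated young group, with only the 2 groups in the fit (limma adjusted p = 0.0601), and when the 4 low-bioC arrays were left out (−0.11). YUC2 and YUC11 were not called for auxin at either age. Of these 4 genes 0 rose at either age, 2 fell at 7 days (26.4% of all probe sets did) and 1 fell at 35 days (28.1% of all probe sets).

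Many AUX/IAA genes, which encode the repressors that auxin removes, are themselves early auxin genes. Of 28 AUX/IAA genes listed 7 were measured. At 7 days 4 of them rose and 0 fell, against 32.7% and 26.4% of all probe sets, and at 35 days 4 rose and 1 fell, against 31.8% and 28.1%. IAA29 rose by 2.70 ± 0.13 and 2.91 ± 0.13. It was lower in mature hypocotyls before auxin (−1.69 ± 0.13), as GH3.3 and WES1 were, and it was also lower after auxin (−1.48 ± 0.13), and no difference of its responses was called. IAA18 was likewise lower with age before (−0.87 ± 0.14) and after auxin (−0.97 ± 0.14). The first call was lost without the 4 arrays of low bioC signal (−0.82). Before auxin IAA34 (0.41, limma adjusted p = 0.00281) and IAA30 (0.30, limma adjusted p = 0.049) were higher with age. The call of IAA30 ended in several alternatives, such as quantile normalization (0.06) and without those 4 arrays (0.43). Thus 2 of the 7 were called higher and 2 lower before auxin, against 22.7% and 22.9% of all probe sets. After auxin 0 were called higher and 2 lower (13.0% of all probe sets). IAA30 rose by 2.96 ± 0.12 and 2.46 ± 0.12. IAA34 fell at 35 days by −0.32 ± 0.09 (limma adjusted p = 0.0104; −0.25 and not called without array 3 of the untreated mature group).

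LBD29 and LBD16, transcription factor genes that act downstream of auxin response factors, are the 2 of 4 listed LBD genes with a probe set of their own. LBD29 rose by 6.33 ± 0.12 and 6.63 ± 0.12 and LBD16 by 4.59 ± 0.11 and 4.23 ± 0.11. Neither was called in an age comparison or for a difference of responses, as GH3.1 was not for the last. No probe set of 1 gene was found for the 6 receptor genes, 12 response factor genes and 15 transport genes listed.

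**Figure D4:**
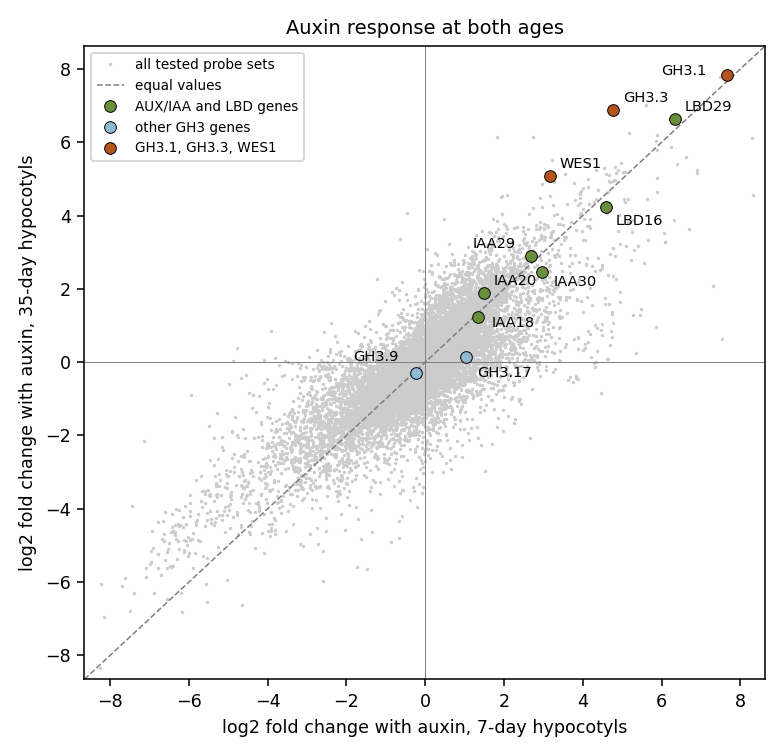
Log2 fold change with auxin in 7-day (x axis) and 35-day hypocotyls (y axis) for all 22746 tested probe sets in grey, with GH3, AUX/IAA and LBD genes marked and a dashed line of equal values. GH3.1 (7.66 and 7.83) lies near the line at the upper right, GH3.3 (4.76 and 6.88) and WES1 (3.16 and 5.08) lie above it, and GH3.17 (1.03 and 0.14) lies below it.

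The genes with the most similar patterns were found by the root mean square difference of log2 values over the 12 arrays, after each gene's mean was subtracted, among the other 13512 probe sets with 1 gene. For GH3.1 the nearest was LBD29 (0.68), followed by AT1G67750 (0.88), AT2G41800 (1.02), AT1G64405 (1.06) and PR-1-LIKE (1.07). For GH3.3 the nearest was AT3G24240 (0.72), followed by AT1G67750 (0.72), AT1G75640 (0.76), AT4G13710 (0.80) and AT4G37295 (0.83). For WES1 it was again AT3G24240 (0.51), followed by AT1G62770 (0.55), AT5G47550 (0.58), AT1G53070 (0.64) and AT1G50110 (0.67). Among themselves GH3.3 and WES1 differed by 0.97, GH3.1 and GH3.3 by 1.19, and GH3.1 and WES1 by 1.96. Each of the 3 was thus further from the other members than from its own 5 nearest genes. The values were not scaled for the size of the rise, so unequal rises add to these distances as unlike shapes do. These distances are descriptions over arrays that share their groups.

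AT3G24240 is near to both GH3.3 and WES1. In young hypocotyls its mean was −2.11 before and 1.99 after auxin, and in mature ones −3.54 before and 1.90 after. It was lower with age before auxin (−1.43 ± 0.13) and its response was larger at 35 days (1.34 ± 0.19). For the other genes nearest to GH3.3 no response difference was called: AT1G67750 (0.30), AT1G75640 (0.33), AT4G13710 (0.16) and AT4G37295 (0.28). Near WES1, AT5G47550 (0.65) and AT1G50110 (0.71) were called larger, and AT1G62770 (0.09) and AT1G53070 were not called. The call of AT1G50110 was lost without the 4 arrays of low bioC signal (0.62). The genes of this paragraph were chosen for their nearness on these same arrays. Their likeness to GH3.1, GH3.3 or WES1 is thus set in part by that choice and is a description, not a separate finding. LBD29 shares with GH3.1 rises of similar size at both ages, with group means of −3.17 and 3.15 in young and −3.23 and 3.4 in mature hypocotyls. This holds for the deposited scaling. Under quantile normalization LBD29 rose by 6.28 at 7 days and 7.45 at 35 days, and GH3.1 by 7.28 and 8.94. PR-1-LIKE had a smaller response at 35 days (−2.20 ± 0.21, limma adjusted p = 3.25e-06). Under quantile normalization this difference was −0.93, still called, where that of GH3.1 was 1.66. Over the 4 group means in place of the 12 arrays, the 5 nearest genes of each member were the same.

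**Figure D5:**
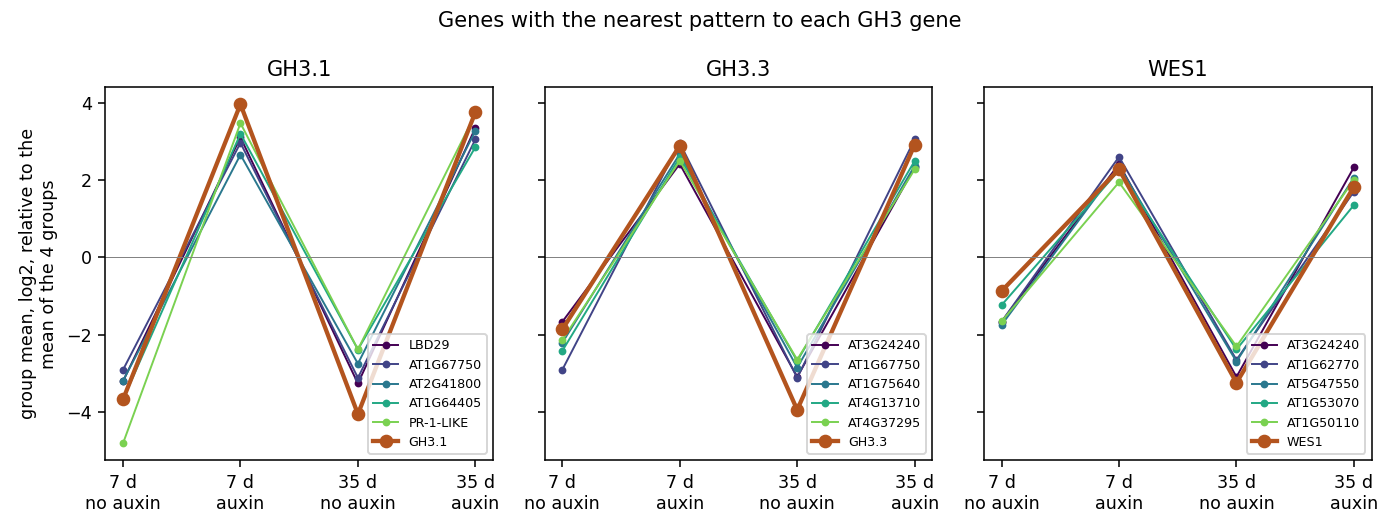
Group means of GH3.1, GH3.3 and WES1 (thick lines) and of the 5 genes with the nearest pattern to each (thin lines), in log2 relative to the mean of the 4 groups. Every gene shown is high in both treated groups, and in the WES1 panel its thick line runs highest in untreated young and lowest in untreated mature hypocotyls.

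GH3.1 and GH3.3 lie on chromosome 2 and WES1 on chromosome 4. Of the 6 protein-coding genes that flank them in the TAIR10.1 annotation, 4 have a probe set with 1 gene. AT2G15000, on one side of GH3.1, rose by 1.42 ± 0.11 at 7 days and by 2.16 ± 0.11 at 35 days. Its response was larger at 35 days (0.75 ± 0.16, limma adjusted p = 0.00237) and it was lower in untreated mature hypocotyls (−0.71 ± 0.11, limma adjusted p = 0.000132), the directions seen for GH3.3 and WES1. Both neighbours of WES1 rose in young hypocotyls, AT4G27250 by 0.99 ± 0.10 and AT4G27270 by 1.65 ± 0.12. In mature ones AT4G27270 rose by 0.79 ± 0.12 and AT4G27250 by 0.24 ± 0.10 (limma adjusted p = 0.0477). The latter call ended in several alternatives, such as quantile normalization (0.18) and with the 4 low-bioC arrays left out (0.37). Of all probe sets 32.7% rose at 7 days and 31.8% at 35 days. After auxin both neighbours were lower in mature hypocotyls (−0.80 and −0.82), as 13.0% of probe sets were. Their responses were smaller at 35 days, by −0.74 ± 0.14 and −0.85 ± 0.17 (not called without the 4 arrays of low bioC signal for AT4G27270, −0.66, limma adjusted p = 0.0774), the opposite direction to WES1. AT2G23160, beside GH3.3, was not called in any comparison.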

How the data were processed

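The authors computed expression values with RMA (background correction, normalization and summary of each probe set), per the submitters' processing notes; the software version is not given in the sources used here. The deposited values are read as log2, the scale RMA gives, and every row has a median of 0 (within 5e-06), a centring that removes absolute levels. Per the labels' protocols, RNA was column-purified, and 10 ug went into labelling as biotinylated cRNA.

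The 64 control probe sets were left out. One limma model (version 3.58.1, R 4.3.3) with 4 groups was fitted to 22746 probe sets, with 8 residual degrees of freedom, two-sided tests and Benjamini-Hochberg adjustment over all probe sets; a call is an adjusted p under 0.05. The labels call the replicates biological. The fit was tested on simulated data with independent noise and 200 probe sets changed in the treated young group. Far more were called in the real data, so that test does not show how the fit performs on these arrays. Errors beside differences are SE. Genes come from GEO's platform annotation, where 503 probe sets have several genes and 8730 are listed with none; 13436 of 13513 matched a locus of TAIR10.1. The members and the 14 lists (123 genes, 25 measured) were chosen with earlier results of these data known. All members and measured GH3 genes are named, and the 5 nearest patterns of each member. Of each other list, up to 2 rises and 2 falls in each auxin contrast are named (all where 4 or fewer are measured). IAA18 is named beyond this rule, and flanking genes were added later.

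Same-numbered arrays of the 2 treated groups had deviations from their group means that correlated at 0.25, 0.16 and 0.12, each above 0.1, which held for no other combination of groups; the labels do not state a pairing.

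Alternatives were other scalings, other estimates of the spread, fewer samples, array weights, a replicate block, a filter on spread and the omission of each array. A filter on low values was not possible.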

Additional observations from a re-analysis of the deposited data

Results flagged for a closer look

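The auxin response differed between ages, by the interaction term of the limma fit, in 10 of the 25 list genes measured, against 35.0% of all probe sets. It was larger (a more positive change) at 35 days for GH3.3 by 2.11 and for WES1 by 1.93, as given above. GH3.17 had a smaller response, by −0.89. Among other genes of auxin removal the difference was −0.72 for AT1G14130 (−0.45 under quantile normalization, and −0.54 and not called without the 4 arrays of low bioC signal), 0.97 for AT1G14120 (limma adjusted p = 0.0543 in an ordinary linear model) and 0.55 for UGT74D1. The call of UGT74D1 ended without array 2 of the untreated young, arrays 1 and 3 of the treated young, array 2 of the untreated mature and arrays 2 and 3 of the treated mature group, with values from 0.43 to 0.57. It also ended under quantile normalization (0.17, limma adjusted p = 0.49), with the 4 low-bioC arrays left out (0.39, limma adjusted p = 0.264), and at an equal difference in the ordinary linear model (adjusted p = 0.0805) and with the replicate block (limma adjusted p = 0.0506). For IAA30 the difference was −0.50, and the call ended without array 3 of the untreated young, arrays 2 and 3 of the treated young, array 2 of the untreated mature and arrays 1 and 2 of the treated mature group, with values from −0.51 to −0.41. It also ended under quantile normalization (−0.28, limma adjusted p = 0.241), with the 4 low-bioC arrays left out (−0.63, limma adjusted p = 0.108), and in the ordinary linear model (adjusted p = 0.0647). The green tissue markers fell less at 35 days, with differences of 1.60 for LHCB4.2, 2.18 for PSAN and 1.81 for PRK. Under quantile normalization these were 0.88, 1.58 and 0.99, and that of LHCB4.2 was 0.87 with the 4 low-bioC arrays left out, all still called.

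Outside the tested probe sets, a control for 25S rRNA rose after auxin, by 4.19 log2 units in young and 3.12 in mature hypocotyls. Its values ran between −2.56 and −1.06 on the untreated and between 1.06 and 2.50 on the treated arrays. Its part in the results above was not tested.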

How the results depend on the processing

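For GH3.1, GH3.3 and WES1, the rises with auxin at both ages and the lower values of GH3.3 and WES1 with age before auxin kept direction and call in every alternative run, as did the larger mature response of GH3.3 (1.77 to 2.42 with 1 array left out) and WES1 (1.70 to 2.12). The age difference of GH3.1 before auxin kept its call except without the 4 arrays of low bioC signal (−0.31). Under quantile normalization its age difference after auxin turned to 0.50 and its response difference was called (1.66). The age difference of treated GH3.3 ran from −0.0782 to 0.131 with 1 array left out, turning negative without array 1 of the treated young or array 2 of the treated mature group. That of treated WES1 was called with array medians set equal (−0.46), with array weights (−0.39), and, at −0.45, with only the 2 groups in the fit, with the replicate block, with the filter on spread or with the 4 low-bioC arrays left out; it ran from −0.52 to −0.37 with 1 array left out. The replicate block changed no other call of the 3 genes. GH3.9 changed sign in values that were not called: 0.0497 with age before auxin without the 4 arrays of low bioC signal, and a response difference of 0.0104 with array weights and from −0.0936 to 0.0128 with 1 array left out. Without those 4 arrays 5574 probe sets were called for age before auxin, against 10386, and 4336 for the response difference, against 7962; each untreated group then has 1 array. The causes were not tested. Absolute signal over background is not in the values, so dim probe sets could not be told from bright ones.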
